A study of Mus musculus with 15 samples.

Results

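Libraries of mouse 3T3-L1 cells labelled as overexpressing MIGA2-GFP were compared with libraries labelled as depleted of MIGA2, both after 6 days of adipogenic differentiation. The comparison takes 6 of the 15 RNA-seq libraries of the series by their titles, MIGA2-GFP at day 6 (3 libraries) and MIGA2-KO at day 6 (3 libraries), and none of the WT libraries. 3T3-L1 is an established line of mouse embryonic fibroblasts that turn into fat cells when given hormones. For all 6 libraries the confluent cells had received insulin (1 µg/mL), dexamethasone (1 µM) and the phosphodiesterase inhibitor IBMX (0.5 mM), and RNA was taken at day 6. The labels give the genotypes as MIGA2 depleted and overexpressed MIGA2-GFP. They do not give the method of depletion, the promoter of the MIGA2-GFP construct, whether a line is 1 clone, or whether MIGA2-GFP was put into WT or into depleted cells. The files hold counts of reads per gene, 10748668 to 13443736 per library, and 11637 of 25700 genes had enough counts to be tested. Levels are in CPM, a gene's count relative to the size of its library as scaled by TMM, for each library or as mean ± SD of the 3 libraries of a group. Some members were picked for naming after their values were seen. A fold change is MIGA2-GFP over MIGA2-KO, with the SE of its log2 value, from edgeR's quasi-likelihood test, and adjusted p-values are Benjamini-Hochberg over all genes tested. Nothing in the labels says that replicates are separate cultures, so the spread behind each p-value is that of these libraries and may be technical.

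MIGA2, or mitoguardin 2, sits in the outer mitochondrial membrane. It binds VAP proteins of the endoplasmic reticulum and also reaches lipid droplets, so that it joins mitochondria to the organelles in which triacylglycerol is made and stored. In a differentiating fat cell the master regulator Pparg, with C/EBP factors, switches on genes for fatty acid uptake, lipid synthesis, droplet coats and adipokines, while mitochondria multiply and the collagen-rich matrix of the preadipocyte is turned down.

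Miga2 itself (ENSMUSG00000026858, chromosome 2, 30364233 to 30385521, forward strand, GRCm38) did not follow the labels in all libraries. Its level was 163.2, 153.7 and 156.9 CPM in MIGA2-GFP replicates 1, 2 and 3, and 74.8 and 70.4 CPM in MIGA2-KO replicates 2 and 3. The library labelled MIGA2-KO replicate 1 had 936.3 CPM, 12.9 times the mean of the other MIGA2-KO libraries and the highest of the 6. Over all 6 libraries Miga2 was therefore not called (log2 fold change -1.19 ± 0.90, adjusted p = 0.276), and without that library it was higher in MIGA2-GFP (log2 fold change 1.12 ± 0.05, edgeR adjusted p = 3.34e-28). Miga1, its paralogue, had 3.52, 1.74 and 1.58 CPM in the MIGA2-KO libraries and 4.38, 5.59 and 4.62 CPM in the MIGA2-GFP libraries, with no overlap (log2 fold change 1.10 ± 0.30, adjusted p = 0.0129). That call rests on MIGA2-GFP replicate 2, without which the adjusted p was 0.0552. On a scale set over all 15 libraries Miga2 was at 160 ± 5.20 CPM in MIGA2-GFP and 162 ± 18.4 CPM in WT at day 6, so these counts show no excess of Miga2 over WT in the libraries labelled as overexpressing it. A count of a gene does not show which part of it the depletion removed, nor whether it includes reads from the construct.

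The library labelled MIGA2-KO replicate 1 stood apart in many other genes as well. It differed at least 2-fold from MIGA2-KO replicates 2 and 3 in 307 and 292 genes, where replicates 2 and 3 differed from each other in 5 and the MIGA2-GFP libraries among themselves in 2 to 4. Among 2075 genes whose MIGA2-GFP mean lay at least 2-fold from the mean of MIGA2-KO replicates 2 and 3, this library lay strictly between them in 1954 (94.2%), beyond MIGA2-GFP in 16, and on the far side of MIGA2-KO in 105. It differed at least 2-fold from single MIGA2-GFP libraries in 1110 to 1167 genes, where MIGA2-KO replicates 2 and 3 differed from them in 2128 to 2193. The name MIGA2-KO replicate 1 is used below only as its label, and what sets this library apart was not tested.

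**Figure D1:**
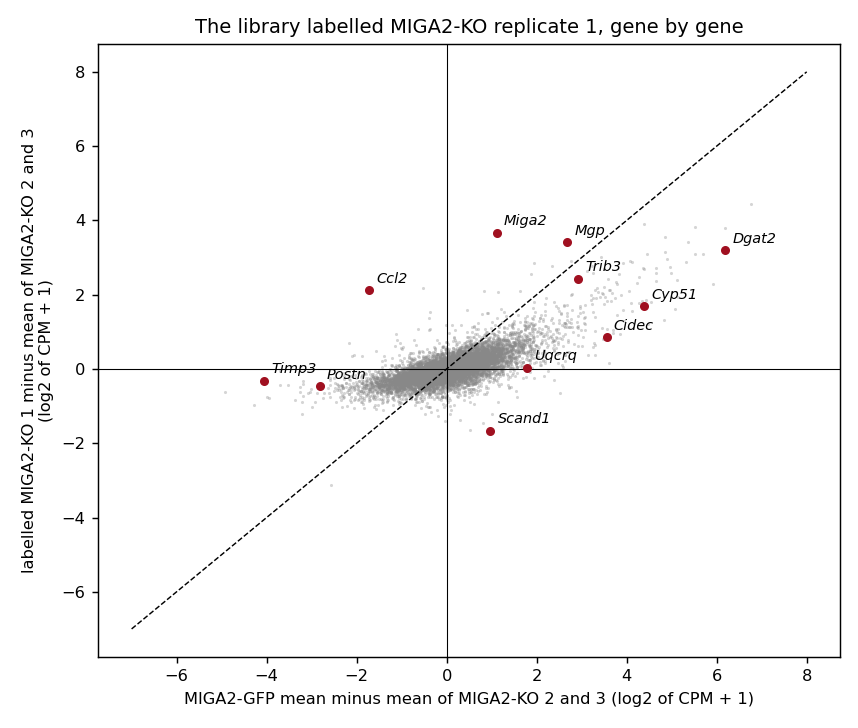
Each point is 1 of the genes tested. The horizontal axis gives the MIGA2-GFP mean and the vertical axis the library labelled MIGA2-KO replicate 1, both as the difference from the mean of MIGA2-KO replicates 2 and 3 in log2 of CPM plus 1. Of the 2075 genes with a 2-fold horizontal difference 94.2% lie between 0 and the dashed line of equal differences, while Miga2 lies above it.

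Of the 11637 genes tested, 3698 (31.8%) were higher and 3777 (32.5%) lower in MIGA2-GFP, together 64.2%. At least a 2-fold difference was called for 2117 genes (18.2%), 1135 higher (9.75%) and 982 lower (8.44%). The 3 libraries of each group did not overlap in 71.2% of the genes tested. With shares this high, a gene list is read below against them, and a list with about 31.8% of its members higher and 32.5% lower is like the whole. Without the library labelled MIGA2-KO replicate 1, 8812 of 11802 genes were called (74.7%), 37.3% higher and 37.4% lower, and 99.3% of the calls over 6 libraries were among them with none in the opposite direction. With offsets for GC content and length 81.5% of the calls were kept and 31 were in the opposite direction. In a fit over all 15 libraries 76.5% were kept.

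The 10 largest rises ran from 51.0-fold in Cyp2b10 to 21.0-fold in P2ry2. Cyp2b10, a drug-metabolising cytochrome P450, stood at 0.352, 0.248 and 0.175 CPM in the MIGA2-KO libraries and at 13.7, 13.3 and 14.1 CPM in the MIGA2-GFP libraries, 51.0-fold higher (log2 fold change 5.67 ± 0.21, adjusted p = 7e-06). Elovl3, an elongase of very long chain fatty acids, had 21.2 ± 0.679 CPM in MIGA2-GFP, 1.32 CPM in the library labelled MIGA2-KO replicate 1 and no count in MIGA2-KO replicates 2 and 3. Ffar4, the receptor for long-chain fatty acids, was called by edgeR (adjusted p = 0.000861) and not by DESeq2 (adjusted p = 0.0827), with 33.7 ± 0.718 CPM in MIGA2-GFP, 4.31 CPM in the library labelled MIGA2-KO replicate 1 and no count in the other two. Against a floor of 3 counts over MIGA2-KO replicates 2 and 3, Elovl3 was at least 165.8-fold and Ffar4 at least 264.1-fold higher in MIGA2-GFP. Apoc3, an apolipoprotein that slows lipoprotein lipase, rose from 7.04, 0.496 and 0.788 CPM to 101.4, 94.0 and 99.0 CPM (log2 fold change 5.16 ± 0.54, adjusted p = 0.000139, or a log2 fold change of 7.24 when leaving out the library labelled MIGA2-KO replicate 1). Aldh1l1, an enzyme of folate metabolism, had 3.43, 0.910 and 0.613 CPM against 50.1, 47.2 and 50.1 CPM, a rise of 29.8-fold that was 63.2-fold without the library labelled MIGA2-KO replicate 1. The other 5 of the 10 were Tmem82, Tmie, 6030408B16Rik, Tex19.1 and P2ry2. Without that library 6030408B16Rik, Tex19.1 and P2ry2 rose 118-, 47.8- and 34.7-fold, and Tmem82 at least 51.6-fold against the floor. The first 3 of these folds are imprecise. Their means over MIGA2-KO replicates 2 and 3 were 0.129, 0.214 and 0.173 CPM, which rest on a few counts.

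Among the largest falls were a receptor, a zinc importer and an inhibitor of matrix proteases. Folh1, a glutamate carboxypeptidase, had 28.5, 41.3 and 46.9 CPM in the MIGA2-KO libraries and 0.337, 0.378 and 0.754 CPM in the MIGA2-GFP libraries, 79.9-fold lower (log2 fold change -6.32 ± 0.32, adjusted p = 1.27e-05). Il1rl1, the receptor for interleukin 33, fell 57.3-fold, with 14.6, 15.6 and 14.8 CPM in MIGA2-KO against 0.168, 0.302 and 0.283 CPM in MIGA2-GFP. In this gene the library labelled MIGA2-KO replicate 1 did not stand apart from the other MIGA2-KO libraries. Slc39a4, the zinc importer ZIP4, fell 49.6-fold, and Timp3, a tissue inhibitor of metalloproteinases, fell 31.2-fold. Ifi205, Gpr149, Tnfrsf21, Larp6, Tdo2 and Spon2 fell 19.3-, 18.4-, 17.1-, 16.8-, 15.3- and 15.1-fold. Without MIGA2-GFP replicate 2 the log2 fold change of Gpr149 was -4.83 in place of -4.20 and the log2 fold change of Tdo2 was -4.72 in place of -3.94.

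**Figure D2:**
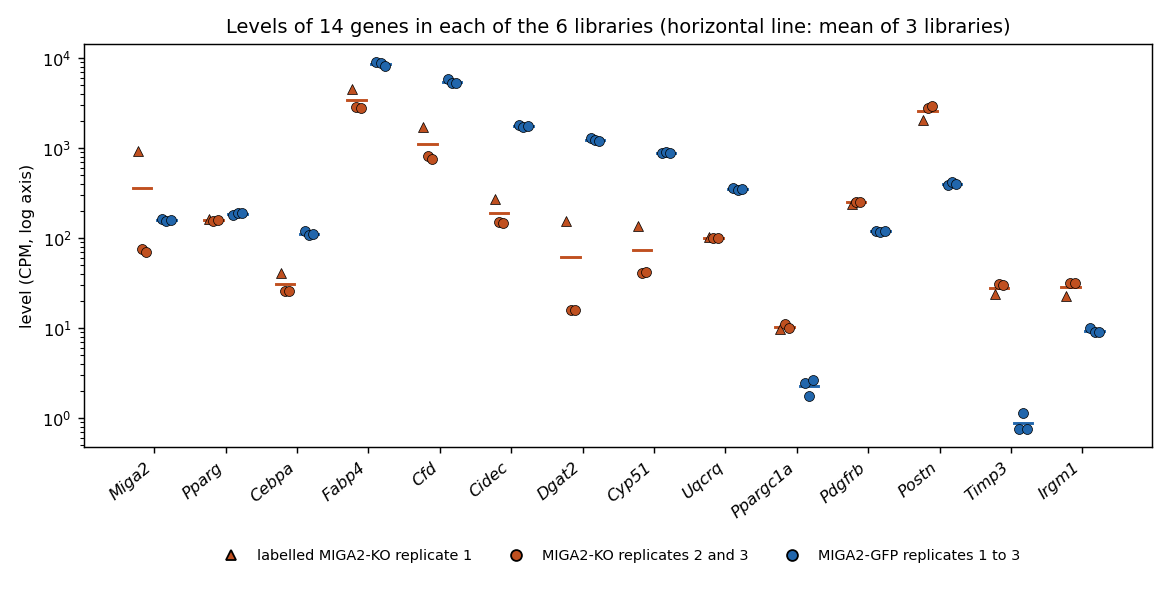
Levels in CPM on a log axis of 14 genes in each library, with triangles for the library labelled MIGA2-KO replicate 1, circles for the other 5 and a horizontal line at each group's mean of 3. The groups do not overlap in any of these genes but Miga2, and Pparg differs least, with 155 to 164 CPM against 178 to 192 CPM.

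Both lines expressed the markers of adipocytes, and all 8 were higher in MIGA2-GFP (median log2 fold change 1.57, against -0.01 for all genes tested). Cidec, a droplet protein that makes large droplets, had 271.2, 152.6 and 147.0 CPM in MIGA2-KO and 1820, 1734 and 1756 CPM in MIGA2-GFP, 9.30-fold higher (log2 fold change 3.22 ± 0.23, adjusted p = 3.25e-05). Cfd, the adipokine adipsin, had 1717, 819 and 757 CPM against 5820, 5298 and 5234 CPM (log2 fold change 2.31 ± 0.30, adjusted p = 0.000339). Fabp4, the fatty acid carrier of fat cells, was 2.54-fold and Plin1, the coat of mature droplets, 3.48-fold higher. In each of these 4 genes the groups did not overlap, and the library labelled MIGA2-KO replicate 1 was the highest of the MIGA2-KO libraries. Without that library Cidec, Cfd, Fabp4 and Plin1 were 11.8-, 6.91-, 3.05- and 4.76-fold higher. Adipoq, which encodes adiponectin, differed less, with 2054, 1489 and 1510 CPM against 2525, 2514 and 2429 CPM (log2 fold change 0.56 ± 0.12, adjusted p = 0.00454). Of the 7 preadipocyte markers 6 were lower in MIGA2-GFP, and Dlk1 was not called (log2 fold change -0.17), but was called without the library labelled MIGA2-KO replicate 1 (-0.31). The summed level of the 8 adipocyte markers was 14990, 9265 and 9294 CPM in MIGA2-KO and 27540 to 29310 CPM in MIGA2-GFP, and that of the 7 preadipocyte markers 946, 1164 and 1156 CPM against 593 to 606 CPM. In these bulk samples a smaller share of cells that became adipocytes and less RNA of these genes per cell cannot be told apart.

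Markers of other cell types summed to lower levels than those of adipocytes and preadipocytes. The 6 macrophage markers summed to 17.1 to 22.8 CPM in MIGA2-KO and 11.4 to 12.4 CPM in MIGA2-GFP, with Adgre1 and Ptprc at 0 in all 6 libraries. The 5 endothelial markers summed to 0.528 to 0.613 CPM and 0.926 to 1.36 CPM, and the 6 epithelial markers to 0.788 to 2.20 CPM and 3.85 to 4.80 CPM, with Epcam and Cdh1 at 0. The 5 osteoblast markers summed to 25.7 to 27.4 CPM and 16.5 to 20.3 CPM, nearly all of it Runx2, which fell, and Alpl, which rose, and the 5 chondrocyte markers to 47.0 to 66.8 CPM and 17.3 to 19.0 CPM, nearly all of it Sox9, with Acan, Col2a1 and Matn1 at 0. The 6 skeletal muscle markers summed to 15.4 to 32.9 CPM in MIGA2-KO and 47.5 to 53.5 CPM in MIGA2-GFP, with Myod1 and Myog at 0. Des made up nearly all of it, except that Ckm had 16.3 CPM in MIGA2-KO replicate 3. The part of such cells in the results was not tested beyond these levels.

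The transcription factors of adipogenesis were divided. Of 25 tested, 11 were higher and 8 lower (median log2 fold change 0.09), against 31.8% and 32.5% of all genes. Only the share lower was near that of all genes. Pparg had 164.2, 154.8 and 159.2 CPM in MIGA2-KO and 178.3, 191.0 and 192.1 CPM in MIGA2-GFP, a difference of 0.23 ± 0.06 on the log2 scale (adjusted p = 0.0113) without overlap. The call was lost without MIGA2-GFP replicate 2 (adjusted p = 0.052) or replicate 3 (adjusted p = 0.0527). Cebpa, its partner in maintaining the adipocyte state, was 30.9 ± 9.05 CPM against 112.3 ± 5.46 CPM (log2 fold change 1.86 ± 0.17). Klf15, a late factor of adipogenesis, rose 8.98-fold from 6.51, 2.48 and 2.89 CPM to 33.8, 35.1 and 37.5 CPM (adjusted p = 6.12e-05), and Nr1h3, the sterol-sensing receptor LXRα, rose 2.63-fold. Without the library labelled MIGA2-KO replicate 1 they rose 13.2- and 2.94-fold. Klf5, an early factor of adipogenesis, fell 4.31-fold. Ppargc1a, a coactivator that drives mitochondrial gene expression, fell from 9.76, 11.1 and 9.99 CPM to 2.44, 1.74 and 2.64 CPM, 4.56-fold lower (adjusted p = 4.76e-05). Of 19 inhibitors of adipogenesis 4 were higher and 5 lower, and 8 and 7 without the library labelled MIGA2-KO replicate 1. The falls included Sox9 (3.36-fold), Wnt5a (2.80-fold) and Pdgfra (2.05-fold), and Notch1 rose 1.37-fold.

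Genes of adipocyte function rose as groups, from uptake of fatty acids to their storage and release. Some lists share members, such as Cidec, Acsl1 and Pgd, so their counts and medians partly repeat the same genes. Of 21 adipocyte markers and adipokines 18 were higher and 1, Car3 (a carbonic anhydrase, log2 fold change -4.09 ± 0.70), was lower, with a median log2 fold change of 1.80. The log2 fold change of Car3 was -4.70 without MIGA2-GFP replicate 1. Without the library labelled MIGA2-KO replicate 1 these were 19 and 1, with a median of 2.25. With a filter at 5 CPM 19 members were left, of which 18 were higher and none was lower (median 2.06). Agt, the precursor of angiotensin, had 1366, 1367 and 1242 CPM against 3252, 3141 and 3082 CPM (2.38-fold, adjusted p = 1.33e-05), and the library labelled MIGA2-KO replicate 1 did not stand apart in this gene. Retn, which encodes resistin, had 72.3, 21.2 and 19.8 CPM against 356.2, 372.5 and 373.1 CPM (log2 fold change 3.28, or 4.16 without the library labelled MIGA2-KO replicate 1). Of 16 genes of fatty acid uptake and activation 14 were higher and 2 lower (median 1.17). Acsl1, which activates fatty acids for storage, rose 6.49-fold from 558.6, 302.4 and 317.1 CPM to 2557, 2563 and 2522 CPM, and Fabp5 rose 1.93-fold. Without the library labelled MIGA2-KO replicate 1 they rose 8.22- and 2.02-fold. The falls in this list were Acsl4 and Acsl5, and Acsl5 lost its call without any 1 of the MIGA2-GFP libraries (adjusted p from 0.0576 to 0.101).

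Transcripts for the synthesis of fatty acids and of triacylglycerol were higher at most steps. Of 24 genes of de novo lipogenesis 19 were higher and 4 lower (median 0.85). Fasn, fatty acid synthase, had 389.9, 429.1 and 394.9 CPM against 754.2, 709.2 and 744.6 CPM (1.82-fold, adjusted p = 3.88e-05), and Slc25a1, which exports citrate from mitochondria, rose 2.63-fold. Scd1, the desaturase that makes oleate, had 10910, 2355 and 2383 CPM against 26880, 26630 and 26600 CPM (log2 fold change 2.36 ± 0.57), and 3.49 without the library labelled MIGA2-KO replicate 1, which was well above the other MIGA2-KO libraries. Elovl6, the elongase of palmitate, fell (log2 fold change -1.35 ± 0.15). Of 19 genes of triacylglycerol synthesis 16 were higher and none was lower (median 1.15), and 12 of them rose at least 2-fold. Agpat2, the acyltransferase of the second step, had 395.8, 445.0 and 412.7 CPM against 961.2, 920.5 and 905.3 CPM (2.22-fold, adjusted p = 1.81e-05). Dgat2, which with Dgat1 attaches the last acyl chain, had 154.4, 16.1 and 15.7 CPM against 1281, 1217 and 1203 CPM (log2 fold change 4.32 ± 0.87, adjusted p = 0.00311, or a log2 fold change of 6.28 when leaving out the library labelled MIGA2-KO replicate 1). Dgat1 differed by less, 272.5 ± 54.0 CPM against 605.9 ± 2.17 CPM (log2 fold change 1.15 ± 0.13).

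Lipid droplet proteins and the lipolytic machinery moved in the same direction, with exceptions among the perilipins. Of 20 droplet proteins 14 were higher and 2 lower (median 0.77). Bscl2, the seipin at sites of droplet formation, had 30.1, 2.98 and 0.788 CPM against 114.6, 118.1 and 119.2 CPM (log2 fold change 3.39 ± 0.80, adjusted p = 0.00644, or a log2 fold change of 5.93 when leaving out the library labelled MIGA2-KO replicate 1), and Fitm2, which helps droplets bud, rose 1.83-fold. Both falls were perilipins, Plin4 (log2 fold change -0.57 ± 0.10) and Plin3 (-0.44 ± 0.08). Plin2, the perilipin of small droplets, was not called (0.32 ± 0.16, adjusted p = 0.119), but was called without the library labelled MIGA2-KO replicate 1 (0.56). Of 21 genes of lipolysis and its control 19 were higher and 1 lower (median 1.48, or 1.96 without the library labelled MIGA2-KO replicate 1). Pnpla2, the triacylglycerol lipase ATGL, had 478.4, 480.9 and 445.8 CPM against 1253, 1159 and 1236 CPM (2.60-fold, adjusted p = 1.03e-05). Its inhibitor G0s2 rose too, from 106.1, 17.5 and 15.9 CPM to 589.5, 532.2 and 559.2 CPM (log2 fold change 3.59, or 5.06 without the library labelled MIGA2-KO replicate 1). Adora1, a receptor that restrains lipolysis, had 3 counts in the MIGA2-KO group against 136 in MIGA2-GFP, a ratio of 44.2 with an exact 95% interval of 14.8 to 217.1 that covers counting error only. Prkacb, a catalytic subunit of protein kinase A, fell 1.80-fold, while Prkaca, the other catalytic subunit in the list, rose by 1.32 on the log2 scale.

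**Figure D3:**
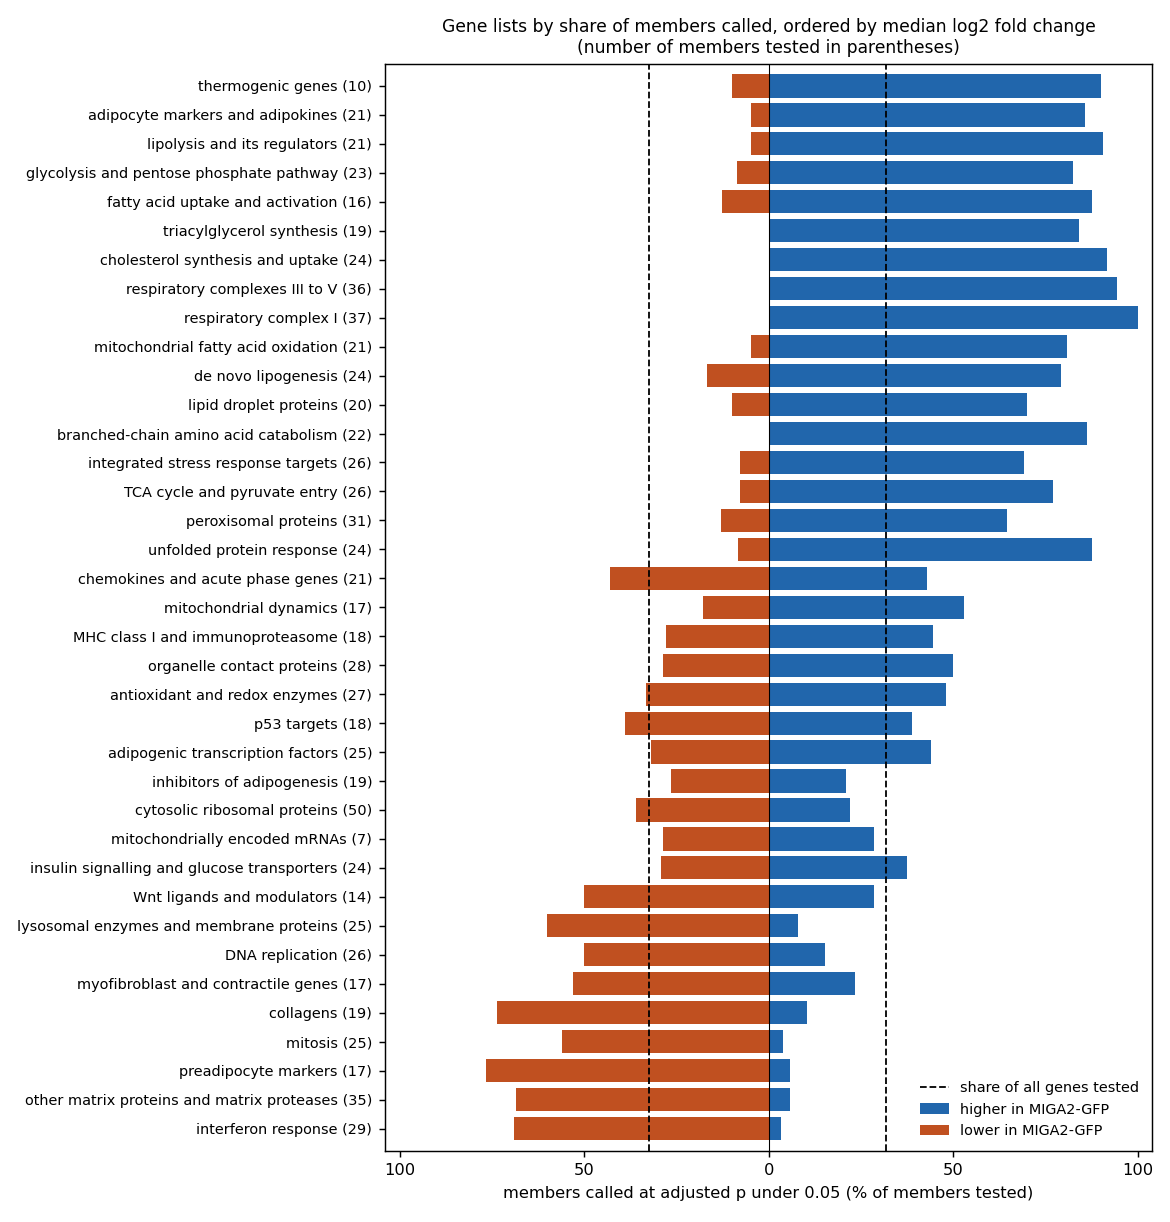
For each gene list the bar to the right is the percentage of its tested members called higher in MIGA2-GFP and the bar to the left the percentage called lower, at an adjusted p under 0.05, with dashed lines at the shares of all genes tested (31.8% and 32.5%). Lists are ordered by median log2 fold change, from thermogenic genes (2.32) down to the interferon response (-1.15, or -0.60 with a filter at 5 CPM).

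Transcripts for nearly every step of sterol synthesis measured were higher. Of 24 genes of cholesterol synthesis and uptake 22 were higher and none was lower (median 1.02), and Idi1 and Stard4 were not called. Cyp51, the demethylase of lanosterol, had 136.9, 41.4 and 41.8 CPM in MIGA2-KO and 883.2, 911.7 and 880.0 CPM in MIGA2-GFP (log2 fold change 3.60 ± 0.46, adjusted p = 0.000329, or a log2 fold change of 4.42 when leaving out the library labelled MIGA2-KO replicate 1). Fdps, which makes farnesyl pyrophosphate, rose 2.68-fold, with 84.9, 66.9 and 65.5 CPM against 194.4, 195.8 and 192.8 CPM. Hmgcs1, an early enzyme of the pathway, differed by less, with 120.7, 112.6 and 117.4 CPM against 140.0, 150.9 and 145.4 CPM (log2 fold change 0.31 ± 0.06, adjusted p = 0.00267, or an adjusted p of 0.0755 in a fit over all 15 libraries). The 250 bases before the RefSeq start (GRCm38.p6) were searched on both strands for a sterol element, TCACNCCAC, and for the CCAAT box, which binds the factor NF-Y. Of the 24 genes 17 were in the promoter table, and a gene counted as holding a motif if any of its starts did. The CCAAT box was present in 16 of them (94.1%), against 41.3% of the 9068 tested genes with a promoter. The sterol element was present in 1, Hmgcs1 (5.88%, against 1.21%). The median log2 fold change was 0.98 for the 16 genes with a CCAAT box and 1.41 for the 1 without. For the 16 genes without the sterol element it was 1.02. A match of these letters is a description and not a binding site.

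The promoters of Hmgcs1 (chr13:119690101-119690350, forward strand), with the smallest rise of those named, and Cyp51 (chr5:4104698-4104947, reverse strand), with the largest, are shown 5′ to 3′ with motif matches in capitals. TCACNCCAC is matched once in Hmgcs1, and the other capitals in both are the CCAAT box or its reverse complement.
Hmgcs1: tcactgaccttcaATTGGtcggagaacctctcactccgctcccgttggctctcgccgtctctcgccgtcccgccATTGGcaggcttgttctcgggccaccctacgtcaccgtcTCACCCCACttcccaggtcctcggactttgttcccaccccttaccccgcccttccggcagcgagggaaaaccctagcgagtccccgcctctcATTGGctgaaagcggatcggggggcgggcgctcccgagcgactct
Cyp51: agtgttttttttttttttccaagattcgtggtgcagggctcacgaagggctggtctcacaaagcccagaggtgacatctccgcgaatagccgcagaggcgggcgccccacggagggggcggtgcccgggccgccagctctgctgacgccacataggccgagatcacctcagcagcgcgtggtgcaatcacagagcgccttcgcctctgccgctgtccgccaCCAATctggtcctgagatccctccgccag

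Nuclear genes of the respiratory chain rose with few exceptions. All 37 tested subunits of complex I were higher in MIGA2-GFP (median log2 fold change 0.94), as were 34 of 36 subunits of complexes III to V with cytochrome c (median 0.95). Uqcrq, of complex III, had 103.1, 100.0 and 101.1 CPM against 356.3, 345.6 and 350.6 CPM (3.46-fold, adjusted p = 7e-06), and the MIGA2-KO libraries, with the library labelled replicate 1, were nearly equal. Ndufb6, of complex I, rose 2.38-fold and Cox6a1, of complex IV, 3.64-fold. The subunits not called were Atp5g2 (log2 fold change -0.08 ± 0.06) and Atp5l (0.62 ± 0.29, adjusted p = 0.0939), both parts of the ATP synthase. Short and GC-rich genes as a whole were higher in MIGA2-GFP: with the genes split into 4 equal bins, the median log2 fold change was 0.25 for the shortest transcripts and -0.21 for the longest, and -0.22 for the lowest and 0.27 for the highest GC content. With offsets that level these trends in each library, 35 of the 37 subunits of complex I and 33 of 36 of complexes III to V were still higher, at medians of 0.59 and 0.68. With these offsets the log2 fold change of Cox6a1 was 1.11, Atp5l was called higher (1.03) and Atp5g2 lower (-0.82).

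Transcripts for fatty acid oxidation, the TCA cycle and other mitochondrial and peroxisomal pathways were mostly higher. Of 21 genes of fatty acid oxidation 17 were higher and 1 lower (median 0.93), and 18 and 3 without the library labelled MIGA2-KO replicate 1. The fall was Cpt1a, the liver-type gate of fatty acid entry, with 84.3, 107.7 and 103.4 CPM against 41.7, 43.6 and 45.0 CPM (log2 fold change -1.18 ± 0.10), while Cpt2, the enzyme on the inner membrane, rose 1.91-fold. Of 26 genes for pyruvate entry and the TCA cycle 20 were higher and 2 lower (median 0.66), and 22 and 4 without that library. Both subunits of the pyruvate carrier rose, Mpc2 3.46-fold (79.9, 64.0 and 71.2 CPM against 243.0, 245.9 and 255.0 CPM) and Mpc1 2.83-fold. Citrate synthase, Cs, was not called (log2 fold change 0.12 ± 0.06, adjusted p = 0.132, or an adjusted p of 0.0422 when leaving out the library labelled MIGA2-KO replicate 1). Of 22 genes of branched-chain amino acid breakdown 19 were higher and none was lower (median 0.75), led by the transaminase Bcat2 (184.5, 155.2 and 143.9 CPM against 594.6, 569.7 and 572.5 CPM, 3.59-fold). Of 31 peroxisomal genes 20 were higher and 4 lower (median 0.60), with Pex16, which builds the peroxisomal membrane, 3.95-fold higher. Of 23 genes of glycolysis and the pentose phosphate pathway 19 were higher and 2 lower (median 1.30), among them Tkt, transketolase, 3.43-fold higher. Of 10 thermogenic genes tested 9 were higher and Ppargc1a was lower. The median of 2.32 in this list was 3.42 without the library labelled MIGA2-KO replicate 1, and Ucp1, Prdm16, Dio2, Esrrg and Bmp7 had too few counts to be tested.

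mRNAs encoded by the mitochondrial genome did not follow the nuclear subunits as a group. Of the 7 tested, mt-Cytb and mt-Nd4 rose and mt-Nd1 and mt-Co1 fell. mt-Cytb had 15820, 10090 and 10070 CPM in MIGA2-KO and 25720, 25920 and 25870 CPM in MIGA2-GFP (log2 fold change 1.11 ± 0.17, adjusted p = 0.000785). mt-Nd1 had 20690, 20510 and 19630 CPM against 14230, 14460 and 14210 CPM (-0.50 ± 0.06, adjusted p = 0.000202). These genes lie on 1 molecule and are cut from shared precursors. The other 6 protein-coding mitochondrial genes, among them mt-Co2 and mt-Atp6, had at most 1.04 CPM in any of the 6 libraries, so their counts say nothing of their transcripts here. The share of all counts from mitochondrially encoded genes was 8.22% ± 0.0801 in MIGA2-GFP and 8.08% ± 0.608 in MIGA2-KO, and the difference of 0.139 percentage points had an exact two-sided permutation p = 0.8, where the smallest possible p is 0.1. The small size of that difference rests on the library labelled MIGA2-KO replicate 1, at 8.78% against 7.74% and 7.73% in MIGA2-KO replicates 2 and 3. Without it the share of counts from mitochondrially encoded genes differed by 0.490 percentage points, and all 3 MIGA2-GFP libraries, at 8.13% to 8.28%, lay above both.

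**Figure D4:**
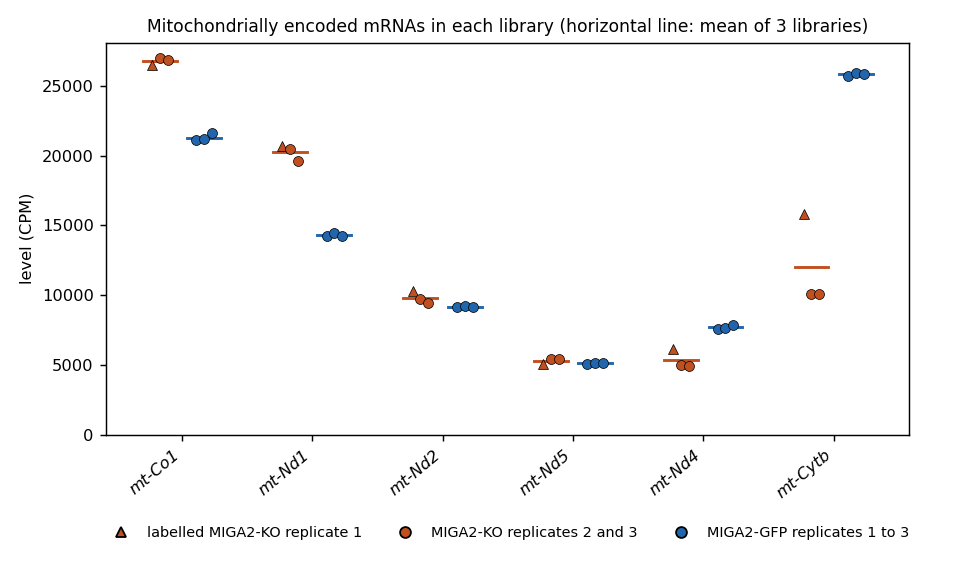
Levels in CPM (linear axis from 0) of 6 mitochondrially encoded mRNAs in each library, with triangles for the library labelled MIGA2-KO replicate 1, circles for the other 5 and a horizontal line at each mean of 3. mt-Co1 and mt-Nd1 are lower and mt-Nd4 and mt-Cytb higher in MIGA2-GFP, and mt-Nd2 and mt-Nd5 were not called over 6 libraries.

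Genes of the organelle contacts at which MIGA2 acts, and of mitochondrial dynamics, differed by smaller amounts. Of 28 contact proteins 14 were higher and 8 lower (median 0.18), against 31.8% and 32.5% of all genes, and 9 were higher in a fit over all 15 libraries. The largest change was in Osbpl8, a lipid transfer protein of the endoplasmic reticulum, with 68.1, 79.9 and 81.0 CPM against 26.2, 31.0 and 28.7 CPM (2.67-fold lower, adjusted p = 2.56e-05). Rmdn3, the mitochondrial tether PTPIP51, rose 2.20-fold, from 47.3, 41.4 and 38.4 CPM to 98.5, 92.5 and 88.5 CPM. Of the VAP proteins that bind MIGA2, Vapa was 0.28 ± 0.10 higher on the log2 scale (adjusted p = 0.0415) and Vapb was not called (-0.07 ± 0.07, adjusted p = 0.389). Vapa lost its call without any 1 of MIGA2-KO replicates 2 and 3 and the 3 MIGA2-GFP libraries (adjusted p from 0.101 to 0.132). Vapb was lower without the library labelled MIGA2-KO replicate 1 (-0.13, adjusted p = 0.0127). Of 17 genes of mitochondrial dynamics 9 were higher and 3 lower (median 0.21), but 8 and 1 by DESeq2, 6 and 0 over all 15 libraries, and 7 and 0 without MIGA2-KO replicate 3 or MIGA2-GFP replicate 1. Among the rises were Rhot2, which couples mitochondria to motors, 2.23-fold higher, and Mfn2, a fusion protein, 1.32-fold higher.

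Among stress response genes more were higher than lower, while insulin signalling and antioxidant genes were divided. Of 24 genes of the unfolded protein response 21 were higher and 2 lower, mostly by little (median 0.50). Of 26 targets of the integrated stress response 18 were higher and 2 lower (median 0.69), and between 13 higher (without MIGA2-GFP replicate 3) and 23 higher (without the library labelled MIGA2-KO replicate 1) when 1 library was left out. With GC and length offsets 14 were higher. Slc7a5, an amino acid transporter, had 81.0, 36.5 and 37.1 CPM against 279.0, 273.9 and 286.1 CPM (5.43-fold, adjusted p = 0.000234), and Mthfd2, a mitochondrial folate enzyme, rose 4.38-fold. Without the library labelled MIGA2-KO replicate 1 they rose 7.60- and 5.46-fold. Atf4, the factor that drives these targets, was not called (log2 fold change 0.20 ± 0.15, adjusted p = 0.261), and its 240.1 CPM in the library labelled MIGA2-KO replicate 1 lay above all MIGA2-GFP libraries. Without that library Atf4 was called (0.42). The rise of Atf5 (1.40-fold) was gone with GC and length offsets (log2 fold change -0.02). Of 24 insulin signalling genes 9 were higher and 7 lower (median -0.06), 9 and 11 without the library labelled MIGA2-KO replicate 1, and 12 and 6 with GC and length offsets (median 0.11). Cav1 (1.82-fold) and Insr, the insulin receptor (log2 fold change 0.99 ± 0.12), rose, while Irs1 (1.81-fold) and Pik3ca (1.68-fold) fell. Slc2a4, the insulin-regulated glucose transporter, had 96.1, 17.2 and 16.0 CPM against 355.7, 334.3 and 336.9 CPM (log2 fold change 2.99, or 4.36 without the library labelled MIGA2-KO replicate 1). Of 27 antioxidant genes 13 were higher and 9 lower (median 0.13), but 9 and 11 with GC and length offsets (median -0.03) and 8 and 9 over all 15 libraries, so no direction is given. The lysosomal list was lower in the main, with 15 of 25 members lower and 2 higher (median -0.39), and 16 and 5 without the library labelled MIGA2-KO replicate 1. Lamp2, a lysosomal membrane protein, fell 2.30-fold. Tfeb, the regulator of lysosomal genes, was one of the 2 rises (log2 fold change 1.51 ± 0.14), Lipa the other.

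Preadipocyte and matrix genes were lower in MIGA2-GFP. Of 17 preadipocyte markers 13 were lower and 1, Cd9, was higher (median -0.82). Cd9 lost its call without MIGA2-KO replicate 3 (adjusted p = 0.0519) or MIGA2-GFP replicate 1 (adjusted p = 0.0547). F3, tissue factor, had 349.2, 375.5 and 376.6 CPM in MIGA2-KO and 138.1, 142.3 and 140.8 CPM in MIGA2-GFP (2.62-fold lower, adjusted p = 1.03e-05). Pdgfrb, a growth factor receptor of progenitors, had 238.2, 254.2 and 254.1 CPM against 118.9, 117.9 and 119.7 CPM, 2.09-fold lower. Of 19 collagen genes 14 were lower and 2 higher (median -0.66), the latter 0 or 1 without any 1 of MIGA2-KO replicates 2 and 3 and the MIGA2-GFP libraries, and Col3a1, a fibrillar collagen, had 6516, 9972 and 9729 CPM against 3056, 2964 and 2862 CPM (2.95-fold lower, adjusted p = 0.0001). Of 35 other matrix proteins and proteases 24 were lower and 2 higher (median -0.83), and 25 and 5 without the library labelled MIGA2-KO replicate 1. Postn, the matricellular protein periostin, fell 6.42-fold from 2060, 2795 and 2917 CPM to 393.0, 417.3 and 400.4 CPM, and Mmp3, a matrix protease, fell 6.57-fold. In Col3a1 and Postn the library labelled MIGA2-KO replicate 1 was the lowest of the MIGA2-KO libraries. Of 17 myofibroblast and contractile genes 9 were lower and 4 higher, Cald1 2.45-fold lower. Acta2, smooth muscle actin, was not called (log2 fold change 1.74 ± 0.72, adjusted p = 0.0633), with 54.5 CPM in the library labelled MIGA2-KO replicate 1, 5.46 and 6.31 CPM in the others and 73.6, 73.5 and 72.8 CPM in MIGA2-GFP. Without that library it was called (3.64). Of 14 Wnt ligands and modulators 7 were lower and 4 higher. Sfrp5, a secreted Wnt inhibitor of adipocytes, rose 14.7-fold from 1.23, 0.579 and 0.3504 CPM to 10.5, 10.7 and 10.9 CPM, or 22.4-fold without the library labelled MIGA2-KO replicate 1. Sfrp2, another member of its family, fell 3.66-fold.

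Among genes of cell division more were lower than higher, and many were not called. Of 25 mitotic genes 14 were lower, 1 was higher and 10 were not called (median -0.69), and their summed level was 125.6, 144.7 and 141.1 CPM in MIGA2-KO and 84.8, 88.6 and 90.5 CPM in MIGA2-GFP. Tpx2, a spindle assembly factor, fell 2.47-fold and Cdk1 1.61-fold. Of 26 replication genes 13 were lower, 4 were higher and 9 were not called (median -0.39), among them Rrm1, a subunit of ribonucleotide reductase, 3.26-fold lower and cyclin Ccne1 2.45-fold higher. Mki67, a common proliferation marker, was not called (log2 fold change -0.18 ± 0.20, and 0.02 without the library labelled MIGA2-KO replicate 1). Of 18 p53 targets 7 were higher and 7 lower, and 4 and 8 with GC and length offsets. Of 50 cytosolic ribosomal protein genes 11 were higher and 18 lower (median -0.03), which became 2 higher and 32 lower with GC and length offsets, and 0 and 5 in a fit over all 15 libraries, so no direction is given for them.

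In the interferon response 20 of 29 tested members were lower and 1 was higher (median -1.15). With a filter at 5 CPM 14 members were left, of which 11 were lower and none was higher, and the median was -0.60, above that of several matrix and preadipocyte lists. Without the library labelled MIGA2-KO replicate 1 or MIGA2-GFP replicate 3 the number higher was 3. Irgm1, an interferon-induced GTPase, had 22.6, 31.6 and 31.9 CPM in MIGA2-KO and 9.93, 9.14 and 8.95 CPM in MIGA2-GFP (3.07-fold lower, adjusted p = 8.37e-05). Stat2, which carries the interferon signal to the nucleus, fell 2.74-fold and Irf1, a transcription factor of the response, 2.23-fold. Many members were near the limit of detection. Ifit1 had 1.67, 1.99 and 1.75 CPM against 0.505, 0.302 and 0.848 CPM, and Oas2 had 59 counts in MIGA2-KO and 3 in MIGA2-GFP, a ratio of 20.2 with an exact 95% interval of 6.57 to 100.5 for counting error. The member that rose was Irf7 (log2 fold change 1.22 ± 0.21). Isg15 was not called, with 2.46, 0.579 and 0.613 CPM against 1.77, 1.81 and 0.754 CPM, but was higher in MIGA2-GFP without the library labelled MIGA2-KO replicate 1 (log2 fold change 1.30, adjusted p = 0.00925). In the 250 bases before the start, the letters GAAANNGAA of the element bound by interferon-activated factors, on either strand, were found in 13 of the 21 members with a promoter in the table (61.9%), against 7.34% of the tested genes with one. Of the 13 with a match 10 were lower and none was higher (median log2 fold change -1.58), and of the 8 without 4 were lower and 1 was higher (median -0.48). A split of the same list by the CCAAT box looked alike. With that box 7 of 8 were lower (median -1.52), and without it 7 of 13 were lower and 1 was higher (median -0.64). Genes that hold both motifs were not separated, so these splits may rest on the same genes and cannot tell the motifs apart. The list was drawn up as interferon response genes, so its share of matches is a description only.

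The promoters of Irgm1 (chr11:48871421-48871670, reverse strand) and Ifit1 (chr19:34640639-34640888, forward strand), which fell, and of Isg15 (chr4:156200819-156201068, reverse strand), which was not called, are shown 5′ to 3′ from RefSeq (GRCm38.p6) with matches to GAAANNGAA or its reverse complement in capitals. Matches can overlap.
Irgm1: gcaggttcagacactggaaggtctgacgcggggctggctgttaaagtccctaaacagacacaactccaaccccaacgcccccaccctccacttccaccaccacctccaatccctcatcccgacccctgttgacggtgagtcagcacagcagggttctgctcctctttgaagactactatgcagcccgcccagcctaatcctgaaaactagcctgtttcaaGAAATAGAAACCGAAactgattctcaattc
Ifit1: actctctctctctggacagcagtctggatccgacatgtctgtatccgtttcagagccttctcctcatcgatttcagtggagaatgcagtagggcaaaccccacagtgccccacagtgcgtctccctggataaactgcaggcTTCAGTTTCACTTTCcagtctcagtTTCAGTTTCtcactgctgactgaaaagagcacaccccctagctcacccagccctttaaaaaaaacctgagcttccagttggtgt
Isg15: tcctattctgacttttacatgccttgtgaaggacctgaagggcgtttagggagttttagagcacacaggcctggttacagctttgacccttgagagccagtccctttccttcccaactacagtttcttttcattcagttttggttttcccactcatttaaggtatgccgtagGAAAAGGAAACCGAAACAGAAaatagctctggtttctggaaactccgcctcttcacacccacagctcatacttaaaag

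Genes of antigen presentation and secreted immune factors were split. Of 18 genes of MHC class I and the immunoproteasome 8 were higher and 5 lower (median 0.21), and 3 and 5 with GC and length offsets. H2-D1, a classical class I heavy chain, had 706.6, 537.9 and 522.6 CPM against 1068, 1048 and 1077 CPM, and H2-T22 fell 2.02-fold. Reads of these near-identical genes may be shared in counting, so their values are uncertain. Of 21 chemokines and acute phase genes 9 were higher and 9 lower (median 0.38). The chemokines among the members called fell, except Cx3cl1, and the acute phase genes called rose, except Serpina3g. The calls of Cx3cl1 and Serpina3g were each lost without any 1 of the MIGA2-GFP libraries (adjusted p from 0.0693 to 0.115), and that of Cx3cl1 also without MIGA2-KO replicate 2 or 3. Without the library labelled MIGA2-KO replicate 1 the log2 fold change of Serpina3g was -0.43 in place of -1.06 and that of Cx3cl1 1.74 in place of 1.07. Cxcl12 had 1439, 1708 and 1691 CPM against 486.4, 477.1 and 495.4 CPM (3.32-fold lower, adjusted p = 1.03e-05). Ccl2, which attracts monocytes, had 40.1 CPM in the library labelled MIGA2-KO replicate 1, 8.69 and 8.15 CPM in the other MIGA2-KO libraries and 1.68, 1.74 and 2.17 CPM in MIGA2-GFP (log2 fold change -3.35, or -2.18 without that library). Lcn2, the iron-trapping protein lipocalin 2, rose 10.6-fold from 17.9, 8.11 and 9.11 CPM to 129.0, 125.9 and 115.2 CPM, or 14.35-fold without the library labelled MIGA2-KO replicate 1. Hp, haptoglobin, had 123.6, 41.1 and 37.6 CPM against 1415, 1355 and 1311 CPM (log2 fold change 4.34 ± 0.46, or 5.11 without the library labelled MIGA2-KO replicate 1).

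**Figure D5:**
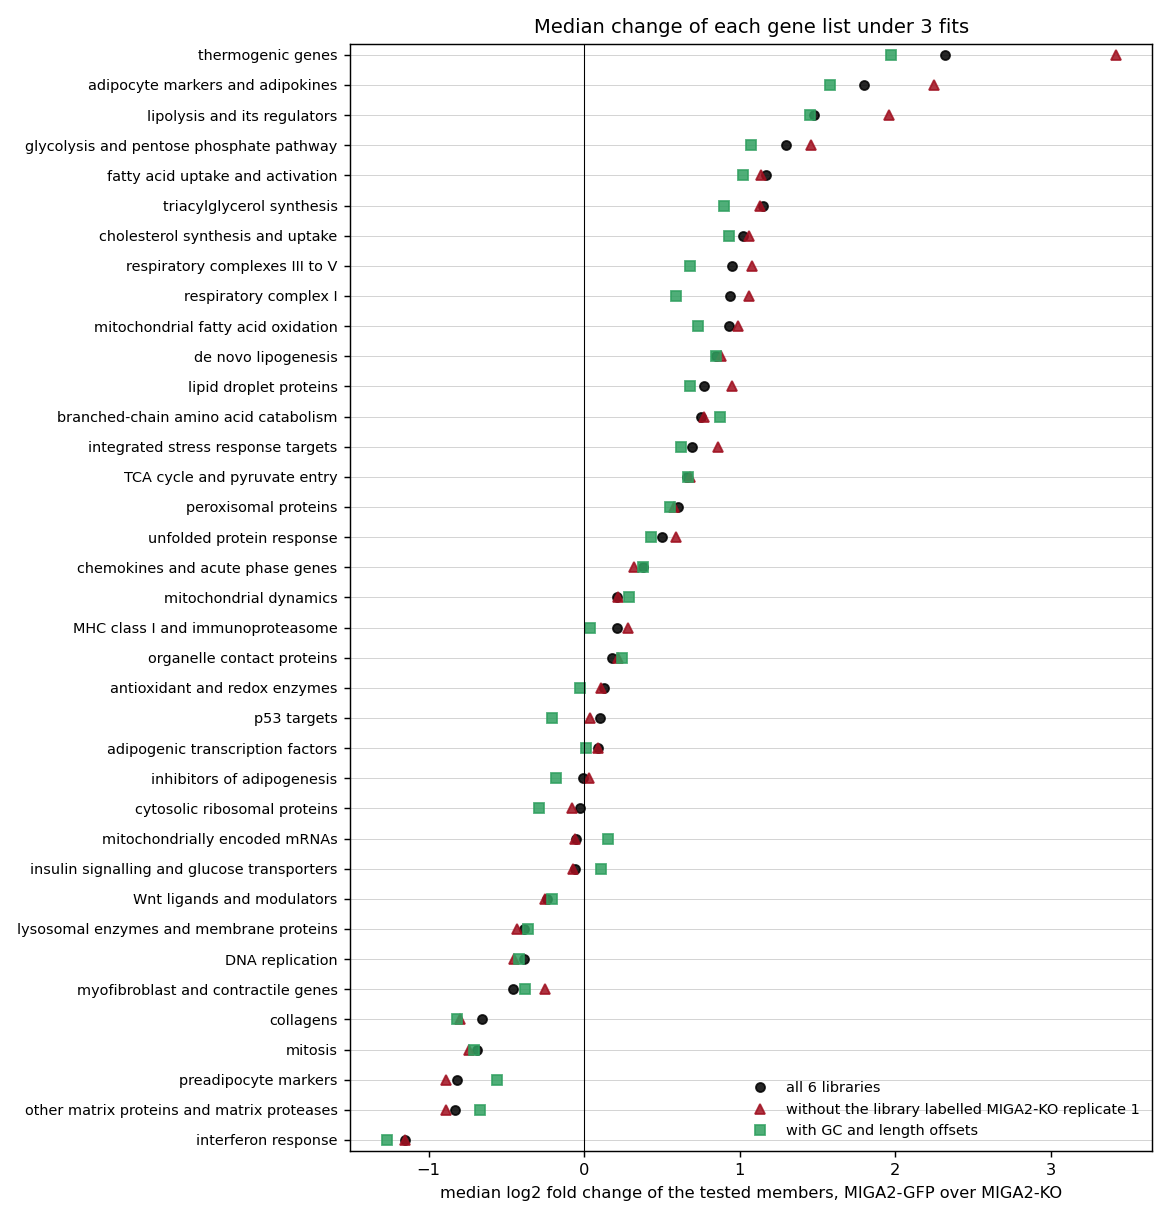
Median log2 fold change of each gene list over its tested members, with all 6 libraries (circles), without the library labelled MIGA2-KO replicate 1 (triangles) and with GC and length offsets (squares). The median of the thermogenic list moves from 2.32 to 3.42 without that library, and that of respiratory complex I from 0.94 to 0.59 with the offsets.

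Beside the other groups of the series, on a scale set over all 15 libraries and without a test, MIGA2-GFP at day 6 lay between MIGA2-KO and WT at day 6 in some adipocyte genes and beyond WT in others. Cidec was at 189 ± 68.8 CPM in MIGA2-KO, 1791 ± 48.7 CPM in MIGA2-GFP and 4603 ± 652 CPM in WT at day 6. Plin1 was at 243 ± 112 CPM, 862 ± 29.5 CPM and 557 ± 74.6 CPM in the same order. Among the genes that fell, Folh1 was at 38.6 ± 9.46 CPM in MIGA2-KO at day 6, 0.495 ± 0.232 CPM in MIGA2-GFP and 3.36 ± 0.864 CPM in WT at day 6, and had no count in either day 0 group. Il1rl1 and Timp3 had other histories, with 125 ± 0.616 and 72.8 ± 1.97 CPM in MIGA2-KO at day 0, 14.9 ± 0.593 and 28.0 ± 3.62 CPM in MIGA2-KO at day 6, and 1.72 ± 0.562 and 2.95 ± 0.814 CPM in WT at day 6. In Slc39a4 MIGA2-GFP lay apart from both other groups at day 6. It had 22.6 ± 8.12 CPM in MIGA2-KO, 0.460 ± 0.147 CPM in MIGA2-GFP and 19.4 ± 6.89 CPM in WT. Miga2 was at 20.4 ± 2.83 CPM in MIGA2-KO and 15.7 ± 2.06 CPM in WT at day 0.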

How the data were processed

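Total RNA was made into stranded TruSeq libraries, per the labels' protocols. The submitters' processing notes name bcl2fastq 2.19, Trimmomatic, STAR 2.5.4b, featureCounts, edgeR and the build GRCm38.p5. They do not name the annotation release, whether counting used strand, or what was done with reads that align to several places. The deposited values are raw counts per Ensembl gene, 1 file per library. Of 25700 identifiers 25664 were given a symbol from GENCODE vM21.

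The 6 libraries were fitted in R 4.3.3 with edgeR 4.0.16: filterByExpr (minimum count 10, minimum total 15), TMM, 1 term per group, quasi-likelihood F test, two-sided, Benjamini-Hochberg adjusted p under 0.05 (common biological coefficient of variation 10.7%). On simulated counts of 11526 genes the fit recovered 96.0% of 2-fold changes and called 0.0706% of unchanged genes. The simulation gave every gene the same dispersion, changed 200 genes and held no deviating library. These shares check the fit and are not error rates of the real comparison. The ± of a log2 fold change is its absolute value divided by the square root of F. Alternatives were other scalings and filters, DESeq2 1.42.0, all 15 libraries, GC and length offsets, a replicate block and leaving out each library.

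The comparison, the gene lists (37, and 8 of cell type markers) and the promoters shown were chosen with earlier results of these data known. Genes named by rule are Miga2, Miga1, the 10 largest rises and falls (adjusted p under 0.05, no overlap, at least 5 CPM in the higher group), from each list up to 4 called members, by smallest adjusted p, and cell type markers. Other members named, such as Dgat2, Cyp51, Scd1 or Hp, were chosen after their values were seen. No list was tested as a set, and 5 list symbols matched no gene in the files. Counts are of reads without molecular identifiers. Exact intervals (95%) and floors (3 counts over the group) cover counting error only.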

Additional observations from a re-analysis of the deposited data

How the results depend on the processing

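The number of genes called moved from 7475 to between 5886 (all 15 libraries in the fit) and 8812 (without the library labelled MIGA2-KO replicate 1), with 6963 by DESeq2, and leaving out each library in turn gave 6426 to 8812. The number of genes changed at least 2-fold, MIGA2-GFP against MIGA2-KO at day 6, went from 1507 with a filter at 5 CPM to 2672. The log2 fold change of Miga2 ranged from -1.68 to 1.12 when 1 library was left out, and turned from -1.19 to 1.12 without the library labelled MIGA2-KO replicate 1. Atf5 turned to -0.02 with GC and length offsets and to -0.01 with the replicate block and these offsets, and the cause beyond the offsets was not tested. The difference in the share of counts from mitochondrially encoded genes, 0.139 percentage points, ranged from -0.0378 to 0.490 when 1 library was left out, and was -0.0350 and -0.0378 without MIGA2-KO replicates 2 and 3. Of 2601 alternative values of the 174 genes named by rule 2585 kept direction and call, 13 lost the call and 3 reversed, which says little, since the rule takes the smallest adjusted p-values. Of 667 values of the 45 genes named after their values were seen 608 kept both, 28 lost the call, 18 gained one and 13 reversed. The reversals were in genes not called: Isg15 (-0.07 and -0.03 without MIGA2-KO replicates 2 and 3, up to 1.30 without replicate 1, -0.09 with offsets and -0.01 with block and offsets), Mki67 (from -0.31 to 0.02 when 1 library was left out, the latter without MIGA2-KO replicate 1, 0.07 and 0.08 with the offsets), Atf4 (-0.07 and -0.05), Vapb (0.11 and 0.12) and mt-Nd5 (0.15 and 0.15). Deviations of libraries with the same replicate number correlated at -0.0303, -0.0832 and 0.0236, so no pairing by number was seen. These values cannot exclude pairing, since the MIGA2-GFP libraries hardly differed among themselves. With the replicate block 6903 genes were called, and 6798 with the block and the offsets. The offsets turned the sign of the medians of the p53, antioxidant, insulin and mitochondrial mRNA lists. Depth of 10748668 to 13443736 counts leaves genes under about 1 CPM to a few counts, and 3 libraries a group cannot pass an exact permutation test.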

Other observations

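MIGA2-KO replicate 3 held skeletal muscle transcripts that the other 5 libraries lacked. There were 10 genes with at least 5 CPM in 1 library and at least 8-fold above each of the others (pseudocount 0.5), all in MIGA2-KO replicate 3 and all genes of skeletal muscle. The fast myosin heavy chain Myh4 had 34.6 CPM, the calcium pump Atp2a1 25.1 CPM, skeletal actin Acta1 22.8 CPM and creatine kinase Ckm 16.3 CPM. Myh1, Tnnt3, Ttn, Pvalb, Neb and Myl1 had 13.5, 11.8, 11.04, 7.10, 5.70 and 5.61 CPM. In the other libraries Acta1 reached at most 1.32 CPM and the other 9 at most 0.579 CPM. Myod1 and Myog, which start the muscle programme, had no count in any of the 6. What gave these counts was not tested.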
